A study of Sus scrofa with 180 samples.

Results

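Solute carriers are the membrane proteins that move fuels, amino acids, nucleotides and ions into cells and organelles, and 55 genes with a symbol that starts with SLC were followed in a back muscle of the pig, the Longissimus (LM), and a thigh muscle, the Semimembranosus (SM). The genes are all those of that name, SLC25A14 and SLC25A27 aside, among the 3481 genes of the probe lists at hand. Those lists name probes that differed between LM and SM, so the members were selected on their muscle difference, which is given below as a description, with no test. The copy of the list for genes higher in SM was shortened at its end, where the weakest differences stood, so the counts of members by direction are not complete. The 55 genes were read by 62 probes of 15198 on the array, and all 62 were among the 10987 probes that passed the quality filters. SLC9A3R1 and SLC4A1AP carry the name but are adaptor proteins rather than carriers.

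Superficial samples of LM and SM were taken from the same 90 carcasses shortly after slaughter, with 1 single-colour Agilent array per muscle and pig, 180 in all. The pigs were crosses of a Pietrain-type and a synthetic sire line, of both sexes and from half-sib families, on 1 farm, with wild-type HAL and RN genotypes and no treatment. The labels name 69 pigs by a plain number and 21 by a code starting with M, whose meaning is not given. A log2 value below is the log2 of the background-subtracted signal minus the median of that array, so 0 is the array's median probe. Values compare muscles or pigs for 1 probe and do not compare probes.

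The arrays of LM lay on 21 slides scanned on 10 days, those of SM on 14 slides scanned on 5 other days, and no slide or day held both muscles, so muscle and hybridization cannot be told apart. The median signal was 171 to 304 in LM and 105 to 252 in SM, and 83.4% (LM) and 73.4% (SM) of the spots of the median array were well above background. Markers of vessels, fat, immune cells and blood mostly had the higher value in SM: 7 of 7 smooth muscle probes, 6 of 6 endothelial, 3 of 3 of the haemoglobin gene HBA2, 6 of 7 adipocyte and 4 of 5 macrophage and leukocyte probes, with median log2 LM minus SM of -0.67, -0.62, -1.12, -0.74 and -0.78. With the C-content index defined below as a covariate, the HBA2 probes shrank from -1.28, -1.12 and -0.46 to -0.14, -0.34 and -0.25. The ACTA2 probes of the smooth muscle list shrank from -0.47 and -0.48 to -0.19 and -0.18. The other smooth muscle probes then lay between -0.47 and -1.93, and each of these marker probes kept its direction. The mean level of the smooth muscle list ran from -1.002 to 5.19 on the arrays of LM and from 1.90 to 3.40 on those of SM, that of the endothelial list from -0.24 to 0.68 and from 0.34 to 1.66, and that of HBA2 from -2.06 to 3.06 and from 1.05 to 6.29. For the adipocyte list it ran from -2.55 to 1.51 in LM and from -0.61 to 2.00 in SM, and for the leukocyte list from -2.61 to -0.88 and from -2.14 to -0.36. The labelled tissue was borne out by the fast fibre genes MYL1, PVALB and MYH1, whose mean level ran from 3.17 to 5.98 on the arrays of LM and from 4.13 to 6.15 on those of SM. Of these 3 probes 1 was higher in LM and 2 in SM. Each list mean takes the probes measured on that array, not centred, so a missing spot shifts it. In LM the HBA2 probes, with means of 3.44, 2.55 and -0.91, were measured on 79, 77 and 90 arrays. The part of missing spots in these ranges was not tested. What part other cell types had in the carrier values was not tested, and in whole muscle fewer cells of a type and less RNA per cell cannot be told apart.

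In muscle, carriers set which fuel reaches the fibre. GLUT4 (SLC2A4) brings in glucose when insulin or contraction calls it to the surface, MCT4 (SLC16A3) lets lactate out of glycolytic fibres and MCT1 (SLC16A1) takes it up, chiefly in oxidative fibres. In the inner mitochondrial membrane the SLC25 family exchanges ADP for ATP, passes malate and oxoglutarate for the malate-aspartate shuttle and imports amino acids and cofactors.

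The letters of some probes are given first, since the values are later set beside them. The most frequent 8-base word over all 15198 probes, found with no use of the signals, was GGAGTTCC, held by 170 probes or 1.12%. It occurs near the start of PRE-1, a short interspersed repeat that is abundant in the pig genome, although whether the probes lie in copies of that repeat was not tested. Its reverse complement is GGAACTCC. Of the 62 carrier probes 3 held the word and 0 the complement. They are shown as 30 bases of the 60-base probe, 5′ to 3′, with the word in capitals, because these 3 probes had 3 of the 4 largest values of LM minus SM.
SLC16A12, bases 1 to 30: aatcccctttaGGAGTTCCtgtggtggcat
SLC7A9, bases 15 to 44: ccacgtaggagGGAGTTCCtattgtggtgc
SLC16A1, bases 31 to 60: aataaagtttgGGAGTTCCcattgtggctc

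A second feature was C near the 5′ end of the probe. The first 30 bases of 5 probes are shown with the C among the first 15 in capitals, because SLC5A10 changed most when a C-content index of the array entered the fit as a covariate, and because for SLC25A6 and SLC25A11 one probe changed and the other did not. The index subtracts, on each array, the average of probes with at most 2 C among the first 15 bases from the average of probes with at least 8. It ran from -1.13 to 0.36 on arrays of LM and from -0.32 to 1.14 on those of SM.
SLC5A10: aCgCCgtCCtCCtCgtgtgtgtcaacctct
SLC25A6, the probe that reversed: attgCCgCCgCCatCtccaagacggtcgag
SLC25A6, the probe that did not: gtCatCCgCtaCttCtccacgcaagccctc
SLC25A11, the probe that shrank: tggaCaaagaagCatgccccccgcagaaag
SLC25A11, the probe that did not: gaaaaagCtCCCgCtggttttatgcaaatg
The count of C in these bases did not by itself mark the probes that changed, since the SLC25A11 probe that shrank has 2 and its neighbour on the same transcript has 5.

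Over all 62 carrier probes, 27 had the higher mean in LM and 35 in SM, with a median log2 LM minus SM of -0.37. Over all 10987 probes, 4799 (43.7%) had the higher mean in LM and 6188 in SM, and the median was -0.07. By limma at an adjusted p of 0.05 or less, 35.7% of all probes were called higher in LM and 47.7% higher in SM. The lists chose the members on this contrast, so nothing is read from the counts. Differences of more than 2-fold were found in 12 of the 62 probes (19.4%), 7 higher in LM and 5 in SM, beside 8.90% of all kept probes and 12.9% of those named in the lists. The smallest value among the carrier probes was 0.10, for the zinc carrier SLC30A6. The values just outside the lists belong to probes without a name here and were not used. Arrays of LM and SM did not overlap at all for 2 carrier probes, SLC16A12 and SLC7A9, beside 2.08% of all probes.

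**Figure D1:**
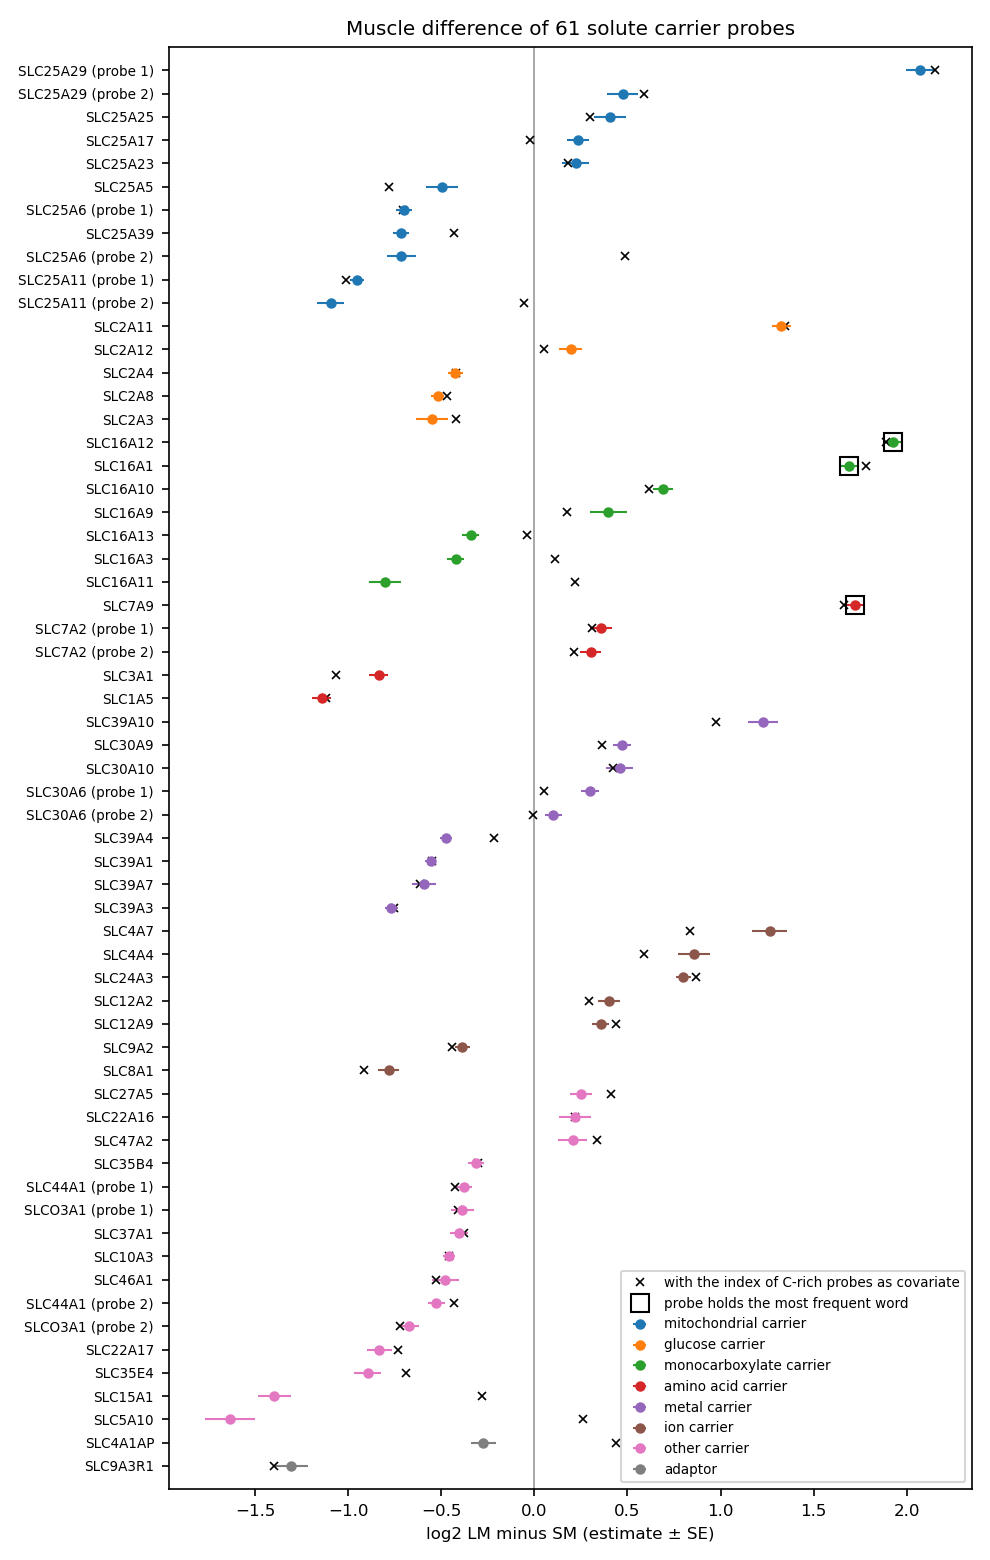
Each point is the log2 LM minus SM of 1 of 61 carrier probes with its SE, coloured by role, each cross is the same value with the C-content index as a covariate, and a square marks a probe with the word. Crosses far from their points belong to SLC5A10, SLC15A1, SLC4A1AP and SLC16A11 and to 1 probe each of SLC25A6 and SLC25A11, while the 3 squared probes lie between 1.69 and 1.93 with crosses close by.

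Mitochondrial carriers went both ways. The ADP/ATP translocases SLC25A5 and SLC25A6, the malate carrier SLC25A11 and the glutathione carrier SLC25A39 had the higher value in SM, the second SLC25A6 probe only without the C-content index in the fit. The basic amino acid carrier SLC25A29 and the calcium-regulated ATP-Mg carriers SLC25A23 and SLC25A25 had it in LM. Of the 11 probes of 8 SLC25 genes, the peroxisomal carrier SLC25A17 among them, 5 were higher in LM and 6 in SM, and the median was -0.50.

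SLC25A11, which exchanges malate for oxoglutarate, ran from -0.11 over a median of 0.48 to 1.54 on the 90 arrays of LM and from 0.66 over 1.44 to 2.04 on the 90 of SM. Of the SM arrays 30 lay above every array of LM, SM was higher in 89 of 90 pigs and the log2 LM minus SM was -0.95 (SE 0.04), or 1.94-fold. The neighbouring probe on the same transcript gave -1.10 (SE 0.07, 74 arrays of LM and 88 of SM), yet with the C-content index in the fit it was -0.06, while the first stayed at -1.01. That neighbour lost 16 spots of LM as not uniform.

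SLC25A6, the ADP/ATP translocase ANT3, gave -0.70 (SE 0.04) on a probe that was higher in SM in 88 of 90 pigs and kept -0.71 with the covariate. Its values were 0.51, 1.16 and 2.07 (lowest, median and highest) in LM and 1.24, 1.90 and 2.60 in SM. Its other probe gave -0.72 (SE 0.08) and turned to 0.49 with the covariate, with 14 spots of LM and 1 of SM not uniform. SLC25A5, the translocase ANT2, varied widely among arrays, with -1.58, -0.66 and 0.90 in LM and -1.41, -0.09 and 1.25 in SM. SM was higher in 68 of 90 pigs and the difference was -0.50 (SE 0.09).

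SLC25A39, the importer of glutathione into mitochondria, had 3.47, 4.02 and 4.72 in LM (84 arrays) and 4.24, 4.77 and 5.54 in SM (90 arrays). The difference was -0.72 (SE 0.04), with SM higher in 81 of 84 pigs, and -0.43 with the covariate. The muscles overlapped in part, and 53 arrays of SM were above the highest of LM.

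SLC25A29, which brings arginine, lysine and ornithine into mitochondria, had the largest value of all carriers before any other background correction. It ran from -1.86 over -0.72 to 0.52 in LM (90 arrays) and from -3.99 over -2.72 to -1.39 in SM (85 arrays), and LM was higher in 85 of 85 pigs. The difference was 2.07 (SE 0.08), or 4.21-fold, and it was 1.22 after another background correction (normexp), below SLC16A12 (1.81), SLC7A9 (1.78), SLC2A11 (1.36) and SLC16A1 (1.31) there. Of the SM spots 5 were not well above background, and the part of dim signal in that size was not tested. Its second probe gave 0.48 (SE 0.08), with 20 spots of SM not well above background and therefore missing, so the probes differ in size but not in direction.

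The remaining members of the family differed less. SLC25A25 gave 0.40 (SE 0.09) and SLC25A23 0.22 (SE 0.07), with LM higher in 55 of 84 and 54 of 90 pigs. SLC25A17, a carrier of coenzyme A and related cofactors in peroxisomes, gave 0.23 (SE 0.06), -0.02 with the covariate, 0.13 with the pig as a block as well, and 0.01 after normexp.

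Enzymes that work beside these carriers mostly had the higher value in SM as well. Of 19 probes for 14 mitochondrial genes taken from the same lists, 18 were higher in SM and the median was -0.62. They include the aspartate aminotransferases of the malate-aspartate shuttle, GOT1 (-1.24 and -1.11) and GOT2 (-0.63), its malate dehydrogenase MDH2 (-0.54, -0.53 and -0.38), the complex II subunit SDHA (-0.68) and the pore protein VDAC2 (-0.51). The exception was CPT1B, the muscle enzyme that makes acylcarnitine for import, at 2.11 (SE 0.09). Among 5 probes of slow and oxidative fibre genes 4 were higher in SM, with TNNI1 at -0.32 and myoglobin (MB) at -0.33. Of the 3 fast fibre probes, PVALB (-1.22) and MYH1 (-0.57) were higher in SM too, and MYL1 (0.87) in LM.

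**Figure D2:**
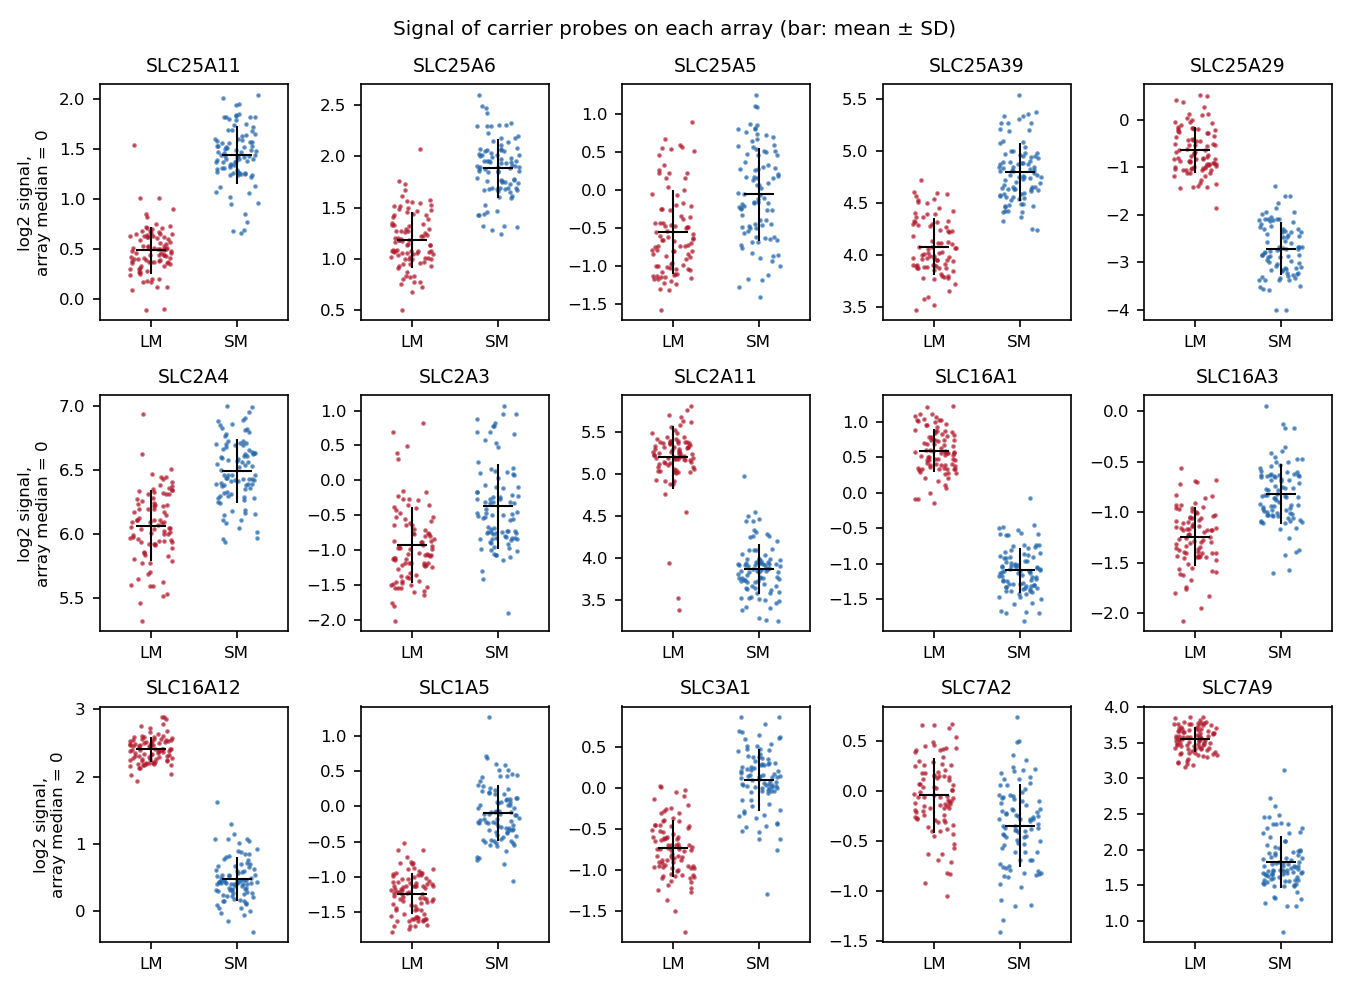
Each dot is the log2 value of a probe on 1 array (array median 0), in LM and SM, for 15 carriers with the mean and SD as a bar; the vertical scales differ. SLC16A12 and SLC7A9 show no overlap of the muscles, SLC25A29, SLC16A1 and SLC2A11 little, and SLC25A5, SLC2A3 and SLC7A2 overlap over most of their range.

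Of the 5 glucose carriers 3 had the higher value in SM, GLUT4 among them. SLC2A4 (GLUT4) had 5.32, 6.08 and 6.93 in LM (88 arrays) and 5.93, 6.46 and 7.00 in SM (90 arrays). SM was higher in 81 of 88 pigs, and the difference of -0.42 (SE 0.04), or 1.34-fold, stood at -0.42 with the covariate and -0.32 after normexp. The arrays of the muscles overlapped over much of their range.

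SLC2A8 (GLUT8, mostly inside the cell) gave -0.52 (SE 0.04) with SM higher in 87 of 90 pigs. SLC2A3 (GLUT3, a high-affinity carrier of neurons and blood cells) gave -0.55 (SE 0.09) with SM higher in 70 of 90. SLC2A12 (GLUT12) gave 0.19 (SE 0.06), LM being higher in 46 of 76 pigs, and -0.04 after normexp, with 11 spots of SM not well above background. Its direction thus turned with the background correction.

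SLC2A11 (GLUT11) went the other way, with 3.38, 5.23 and 5.80 in LM (87 arrays) and 3.25, 3.86 and 4.97 in SM (90 arrays). LM was higher in 85 of 87 pigs, by 1.33 (SE 0.05). Of the enzymes of glucose use, hexokinase HK1 (-1.34) and glycogen synthase GYS1 (-0.59 and -0.51) were higher in SM and glycogen phosphorylase PYGM (0.23) in LM. Over the 11 probes of glucose and lactate metabolism 5 were higher in LM and 6 in SM. The value of aldolase ALDOA, 1.90, came from a probe that also holds the word.

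Monocarboxylate carriers ran from -0.80 to 1.93. Of 7 probes 4 were higher in LM and 3 in SM. SLC16A1 (MCT1) had -0.14, 0.57 and 1.22 in LM and -1.81, -1.10 and -0.07 in SM on 90 arrays each. LM was higher in 90 of 90 pigs, by 1.69 (SE 0.05), and 87 arrays of LM were above every array of SM. SLC16A12, a carrier of creatine, had 1.93, 2.40 and 2.88 in LM and -0.31, 0.43 and 1.62 in SM, with LM higher in 90 of 90 pigs by 1.93 (SE 0.04).

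SLC16A3 (MCT4), the lactate exporter, gave -0.42 (SE 0.04), with SM higher in 72 of 86 pigs, and 0.11 with the covariate. SLC16A11, linked to pyruvate transport, gave -0.80 (SE 0.09) and 0.22 with the covariate, with 8 spots of LM not uniform. SLC16A13 gave -0.34 (SE 0.05) and -0.04 with the covariate. With the pig as a block beside the index, SLC16A3 was 0.0067, SLC16A11 -0.02 and SLC16A13 -0.20.

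SLC16A10 (TAT1), which carries aromatic amino acids, was higher in LM in 78 of 85 pigs by 0.69 (SE 0.05), and by 0.25 after normexp. SLC16A9 gave 0.40 (SE 0.10), with LM higher in 52 of 78 pigs, 0.17 with the covariate and 0.11 after normexp.

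The amino acid carriers of the cell surface were divided, 3 probes higher in LM and 3 in SM. SLC1A5 (ASCT2), which takes up glutamine and other neutral amino acids, had -1.78, -1.22 and -0.52 in LM and -1.07, -0.11 and 1.26 in SM. SM was higher in 90 of 90 pigs by 1.14 on the log2 scale (LM minus SM -1.14, SE 0.05), and the value was -1.12 with the covariate and -0.92 after normexp. No other carrier higher in SM held that direction in every pig measured.

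SLC3A1 and SLC7A9 encode the heavy and the light subunit of 1 transporter of cystine and basic amino acids, known from kidney and gut, and their probes went opposite ways. SLC3A1 had -1.75, -0.74 and 0.03 in LM and -1.29, 0.14 and 0.87 in SM, a difference of -0.84 (SE 0.05) with SM higher in 83 of 90 pigs. SLC7A9 had 3.16, 3.55 and 3.86 in LM and 0.85, 1.75 and 3.12 in SM, a difference of 1.72 (SE 0.04) with LM higher in 90 of 90 pigs. The lowest array of LM was above the highest of SM for SLC7A9.

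SLC7A2 (CAT2), a carrier of arginine and lysine, gave 0.36 (SE 0.06) and 0.30 (SE 0.06) on its 2 probes, with LM higher in 66 and 65 of 90 pigs. Of the enzymes beside them, alanine aminotransferase GPT (-0.86) was higher in SM.

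Metal carriers divided by family. All 4 probes of SLC30 carriers, which move zinc or manganese out of the cytosol, were higher in LM, and 4 of the 5 of SLC39 carriers, which bring zinc in, were higher in SM. SLC39A10 was the exception at 1.23 (SE 0.08), with LM higher in 81 of 90 pigs, while SLC39A3, SLC39A7 and SLC39A1 gave -0.77 (SE 0.04), -0.59 (SE 0.07) and -0.56 (SE 0.03). SLC30A9 gave 0.47 (SE 0.05) and SLC30A10, which carries manganese out of cells, 0.46 (SE 0.07), or 0.09 after normexp. The SLC30A6 probes, at 0.30 and 0.10, stood at 0.05 and -0.01 with the covariate, and at 0.17 and 0.10 with the pig as a block as well.

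Ion carriers were higher in LM on 5 of 7 probes. The sodium bicarbonate carriers SLC4A7 and SLC4A4 gave 1.26 (SE 0.09) and 0.86 (SE 0.09), and the calcium exchanger SLC24A3 gave 0.80 (SE 0.04), or 0.66, 0.63 and 0.36 after normexp. SLC4A7 lacked 18 spots of SM that were not well above background. SLC8A1, the sodium-calcium exchanger, gave -0.78 (SE 0.06), or -0.47 after normexp, and lacked 15 spots of LM that were not well above background. SLC9A2, a sodium-proton exchanger, gave -0.39 (SE 0.04). Of 8 probes of carbonic anhydrases, ion pumps and metallothionein 6 were higher in LM, among them CA4 at 0.54.

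The other carriers leaned to SM, on 12 of 15 probes. The sugar cotransporter SLC5A10 read -1.63 (SE 0.14) on 69 arrays of LM and 52 of SM, since 21 and 37 spots were not uniform, and 0.26 with the covariate. The peptide carrier SLC15A1 read -1.40 (SE 0.09) and -0.28. SLC35E4 read -0.90 (SE 0.07) and kept -0.69. SLC27A5, SLC22A16 and SLC47A2 were slightly higher in LM, at 0.25, 0.22 and 0.21, and SLC47A2 turned to -0.20 after normexp. The scaffold SLC9A3R1 gave -1.31 (SE 0.10) and -1.40 with the covariate, whereas SLC4A1AP gave -0.27 (SE 0.07) and turned to 0.44.

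The 3 probes with the word could be set beside all others that hold it. Of the 109 such probes kept, 98 were higher in LM and 84 by more than 2-fold (77.1%), and their median log2 LM minus SM was 1.53, with quartiles of 1.101 and 1.80. For the 100 probes with the complement the median was -0.26 and 4 were more than 2-fold higher in LM, and for the 10778 with neither it was -0.07 and 5.67% were. The values of SLC16A1 (1.69), SLC7A9 (1.72) and SLC16A12 (1.93) thus sat within or just above the quartiles of the probes with the word, and what else those probes share was not tested. The probes with the word have 23 gene names in the lists at hand.

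**Figure D3:**
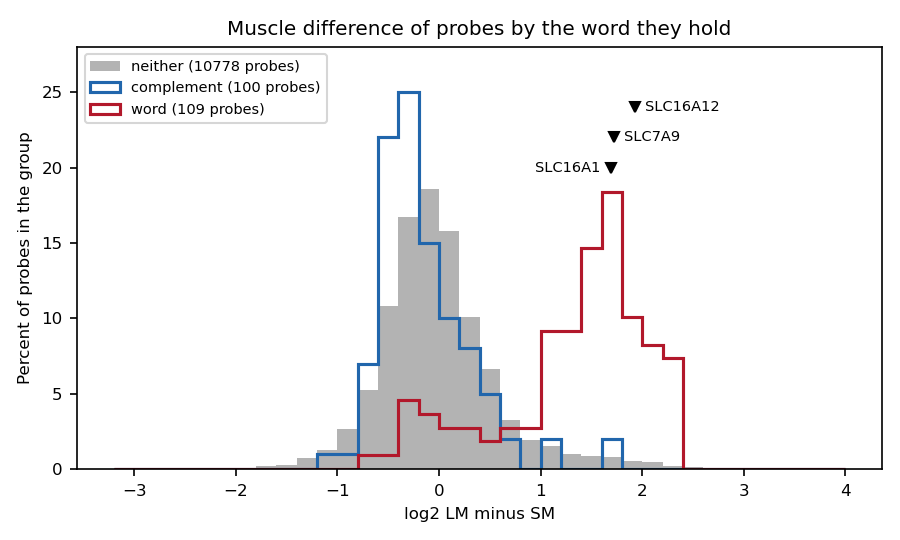
Histograms of log2 LM minus SM, as the percent of the probes in each group per bin of 0.2, for 109 probes with the word, 100 with its complement and 10778 with neither. Triangles mark the 3 carriers with the word, which lie at 1.69, 1.72 and 1.93, in the hump of the word group around 1.53 and away from the other groups.

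The spread across pigs within a muscle did not choose the members and was tested. The correlation of a carrier with the mean of the other 108 probes holding the word was computed in each muscle over 90 pigs, as 8 relations with SLC2A11 included. For SLC16A1 Pearson's r was 0.86 in LM and 0.87 in SM (Spearman's rho 0.86 and 0.86), for SLC7A9 0.85 and 0.94 (rho 0.88 and 0.90) and for SLC16A12 0.47 and 0.89 (rho 0.49 and 0.83). In permutation tests p was 1e-05, the smallest that 100000 permutations give, except 2e-05 for SLC16A12 in LM, and the adjusted p over the 8 was 2e-05 or less. Without the 2 pigs farthest from the median r was 0.52 to 0.93, and with slide means removed 0.52 to 0.93. The r of SLC16A12 in LM was below 0.56, the level under which 95% of the probes with neither the word nor its complement lay, and the other 5 values were above that level for their muscle (0.44 in SM).

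SLC2A11 does not hold the word, yet its r with the mean of all 109 word probes was 0.50 in LM (87 pigs) and 0.84 in SM (rho 0.55 and 0.80, permutation p = 1e-05 each), and 0.32 and 0.89 with slide means removed. Among the 10778 probes with neither the word nor its complement, the median r with that mean was -0.03 in LM and 0.01 in SM, and 95% lay below 0.56 and 0.44. In SM only 123 of them went above 0.84. The choice of SLC2A11 for this relation was made after its difference was seen. The relations of SLC16A1, SLC7A9 and SLC16A12 with the probes holding the word were also added after the data were seen.

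**Figure D4:**
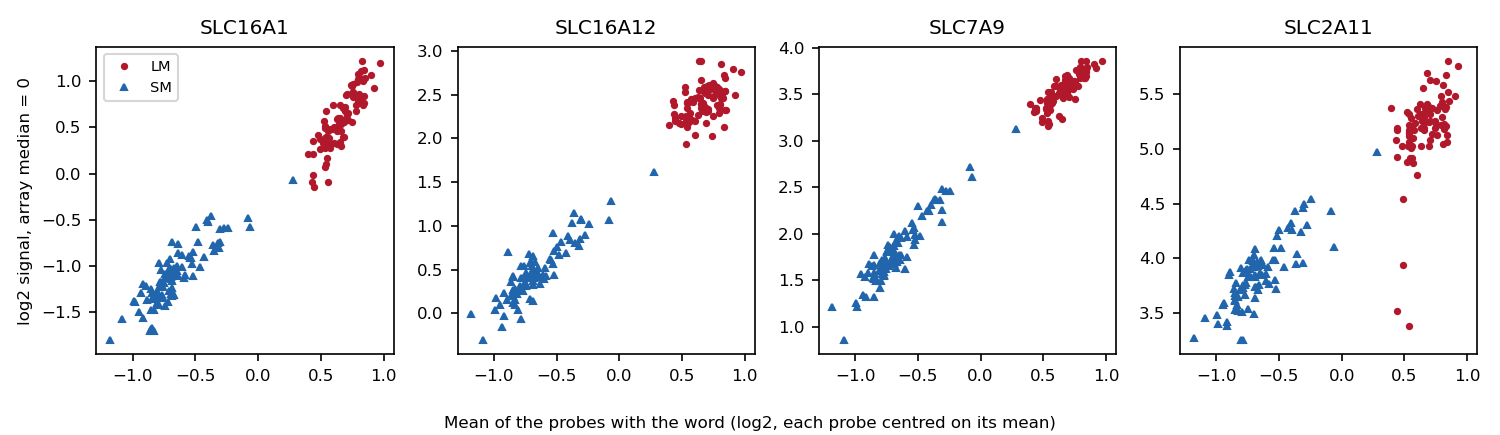
Log2 value of 4 carriers on each array (vertical, array median 0) against the mean of the 109 probes with the word (horizontal, log2, each probe centred on its own mean), LM as circles and SM as triangles. The mean runs from 0.40 to 0.97 in LM and from -1.18 to 0.28 in SM, and SLC16A1 and SLC7A9 rise with it within each muscle, while for SLC2A11 a few arrays of LM lie far below the rest.

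The pairs of probes of 1 gene give another measure that the lists did not use. The relations of 21 pairs in 2 muscles gave 42 correlations across pigs, each with permutation p-values adjusted over the 42. Of these 23 had an adjusted p of 0.05 or less, and the share over all pairs of probes was not computed. The level below which 95% of all probes lay for the first probe of a pair ran from 0.18 to 0.62. A called pair can thus be under its level. For SLC7A2 the probes, taken from different sequence records, had r = 0.93 in LM and 0.93 in SM (rho 0.93 and 0.92, 90 pigs, adjusted permutation p = 4.2e-05 in each). No more than 1 of the 10986 other probes correlated more highly with the first SLC7A2 probe in either muscle, and slide means removed left 0.94 and 0.94. The SLC7A2 probes thus shared their variation between the arrays of a muscle. With 1 array per muscle and pig, the pig and the sample cannot be told apart.

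SLCO3A1, an organic anion carrier, had r = 0.62 in LM (48 pigs) and 0.61 in SM (62 pigs), although 42 and 28 spots of its second probe were missing as dim. SLC25A29 had 0.80 in LM and 0.36 in SM, and SLC30A6 0.31 and 0.63, all with an adjusted p of 0.05 or less. The 0.31 was just under 0.32, below which 95% of all probes lay for SLC30A6 in LM. SLC44A1, a choline carrier, had 0.20 in LM and 0.28 in SM, and the latter was 0.16 with slide means removed. These were under its levels of 95% of all probes, 0.22 in LM and 0.39 in SM.

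The SLC25A11 probes had r = 0.05 in LM (74 pigs, permutation p = 0.643) and 0.53 in SM (88 pigs, p = 1e-05), and once the C-content index was removed 0.44 and 0.79. The SLC25A6 probes did not follow each other, with r = -0.03 in LM (76 pigs, permutation p = 0.811) and 0.10 in SM (88 pigs, p = 0.341). So the SLC25A6 probes, whose muscle difference was similar only without the index in the fit, ranked the pigs differently.

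Between genes, the SLC25A5 probe varied with 1 probe of the other ADP/ATP translocase, SLC25A6. The other SLC25A6 probe, which did not follow the first, was not set beside SLC25A5. SLC25A5 and the SLC25A6 probe that kept its value had r = 0.57 in LM and 0.46 in SM (90 pigs, rho 0.56 and 0.45, permutation p = 1e-05 and 3e-05), 0.55 and 0.41 without the 2 farthest pigs, and 0.57 and 0.43 with slide means removed. That was above 98.9% (LM) and 98.1% (SM) of all probes. For SLC25A11 and its shuttle partner GOT2 r was 0.33 in LM (89 pigs, permutation p = 0.00128) and 0.53 in SM (90 pigs, p = 1e-05), and for MDH2 0.31 (p = 0.00269) and 0.45 (p = 1e-05). Without the 2 farthest pigs GOT2 had 0.40 and 0.55, and MDH2 0.27 and 0.43. For SLC25A11 95% of all probes lay below 0.32 in LM and 0.41 in SM, so MDH2 in LM was under that level and GOT2 in LM and both in SM were above it.

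SLC2A4 was correlated with GYS1, the enzyme that stores the glucose it brings in, with r = 0.40 in LM (88 pigs, rho 0.37, permutation p = 0.00012) and 0.36 in SM (90 pigs, rho 0.35, p = 0.00057). Without the 2 farthest pigs r was 0.33 and 0.36, and after normexp 0.22 and -0.04. For SLC2A4 95% of all probes lay below 0.27 in LM and 0.37 in SM, so the value in SM was under that level. With the slow fibre gene TNNI1 SLC2A4 had 0.13 in LM (permutation p = 0.229) and 0.39 in SM (p = 0.00021), and the difference between the muscles was not tested. SLC25A39 and SDHA had -0.03 in LM (permutation p = 0.803) and 0.30 in SM (p = 0.00437). The value in SM was under 0.38, below which 95% of all probes lay for SLC25A39. SLC25A6 and the ATP synthase subunit ATP5A1 had 0.04 and 0.23, neither with an adjusted p of 0.05 or less.

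SLC16A1 and LDHB, whose enzyme turns lactate into pyruvate, had r = -0.36 in LM (90 pigs, permutation p = 0.00048), which fell to -0.02 with slide means removed, and -0.12 in SM (p = 0.277). SLC16A1 and SLC16A3 had 0.36 in LM (87 pigs, permutation p = 0.00064) and 0.13 in SM (p = 0.224). For SLC16A1, whose probe holds the word, 95% of all probes lay below 0.55 in LM, so 0.36 was under that level. SLC25A29 and SLC7A2, which handle the same amino acids at different membranes, had 0.32 in LM (permutation p = 0.00231) and 0.20 in SM (p = 0.0677). The value in LM was under 0.41, below which 95% of all probes lay for SLC25A29.

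The subunits SLC3A1 and SLC7A9 had 0.07 in LM and -0.01 in SM (permutation p = 0.519 and 0.944). SLC4A4 and the carbonic anhydrase CA14 had 0.15 and 0.03, SLC8A1 and the calcium pump ATP2A2 0.06 and 0.05, and SLC16A3 and ALDOA 0.19 and 0.12, none with an adjusted p of 0.05 or less.

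**Figure D5:**
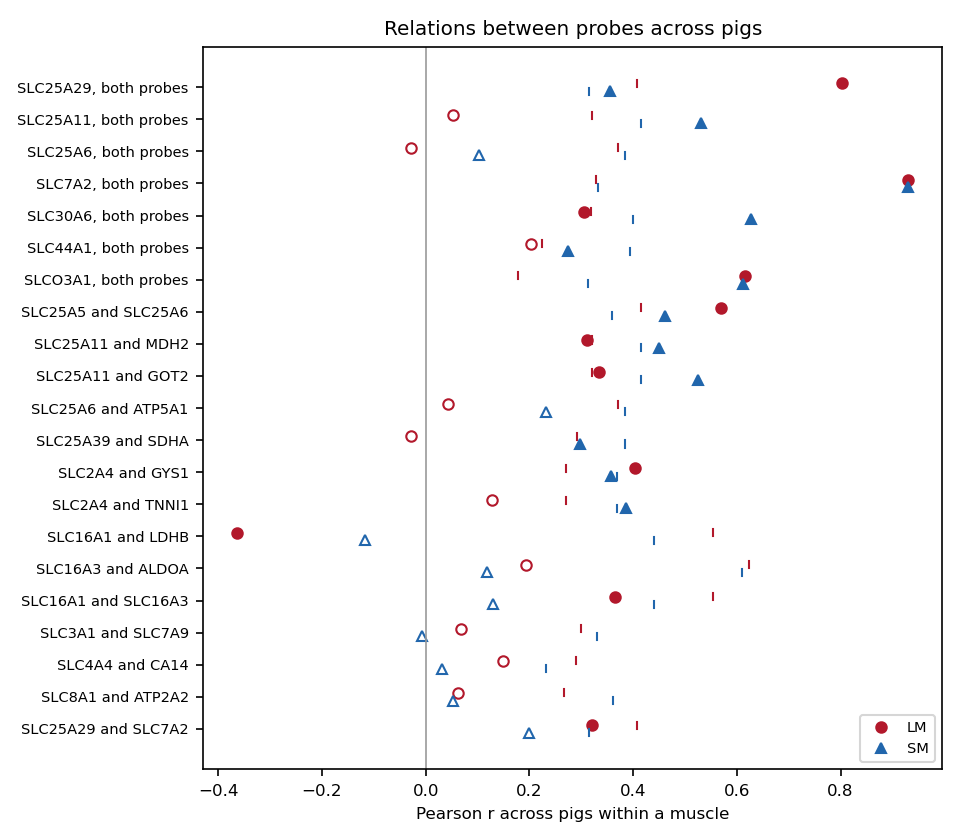
Pearson's r across pigs for 21 pairs of probes in LM (circles) and SM (triangles), filled where the adjusted permutation p is 0.05 or less, with a short bar at the 95th percentile of r between the first probe and all other probes. The SLC7A2 probes stand highest at 0.93 in each muscle, and the subunits SLC3A1 and SLC7A9 lie near 0. The translocases SLC25A5 and SLC25A6, the latter by 1 probe, pass their bars in both muscles.

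Whether a pig high in LM was also high in SM was asked for every probe measured in both muscles of at least 30 pigs. Of 10963 probes 1.37% had an adjusted permutation p of 0.05 or less with r above 0, and the median r was 0.07. Of the 61 carrier probes that could be tested, all but SLC46A1, 1 passed and the median was 0.06. That was SLC25A17, with r = 0.47 over 73 pigs (rho 0.52, permutation p = 6e-05, adjusted p = 0.00926), or 0.45 without the 2 farthest pigs. It fell to 0.08 with slide means removed, where 0 of all probes passed, and it was 0.39 among the pigs with a plain number (56) and 0.68 among those with an M code (17).

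The next were SLC4A1AP at 0.35, SLC25A5 and SLC16A9 at 0.27, SLC30A6 at 0.25, SLC39A7 at 0.23 and SLC39A4 and SLC47A2 at 0.22, none with an adjusted p of 0.05 or less. The lowest were SLC37A1 at -0.13, SLC9A2 at -0.14 and SLC8A1 at -0.15. The SLC7A2 probes, so closely tied within a muscle, had r = 0.05 and 0.05 between the muscles of the same 90 pigs (adjusted permutation p = 0.885 and 0.912). SLC25A29 had 0.18 on each probe and SLCO3A1 -0.03 on each. For these carriers a pig's rank in LM was therefore little guide to its rank in SM, although the probes of the gene followed each other within each muscle.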

How the data were processed

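The labels give the muscle and the pig of each array, and each replicate number stands for the same pig in both muscles. As deposited, the scanner files hold a processed signal intensity per spot, which the authors obtained with Feature Extraction 9.5.3.1 for 46 LM arrays and the 90 SM arrays and with 9.5.1.1 for the other 44, background subtracted and not normalized across arrays. A further table from the authors gives 6903 probes on the natural log scale, which equals the natural log (ln) of the processed signal minus 1 constant per array, and it served as an alternative. Genes were named from the probe lists of the study, whose fold changes and p-values were not used. No genome build applies, since probes were matched by name and no coordinates were given.

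Here log2 of the processed signal was used. A spot was set missing if dim against its background, non-uniform or saturated, and a probe was dropped where that took over 50% of the spots of a muscle, before and again after outlying values (beyond 3 SD of the probe) had been taken out. Each array's median was subtracted. The muscles were compared with limma 3.58.1 in R 4.3.3 (statmod 1.5.0 for random blocks), with adjustment by Benjamini and Hochberg over 10987 probes. The terms of the study's model for sex, slaughter, hybridization batch and weight are not in the labels and were left out. Correlations across pigs were tested two-sided with 100000 permutations (Python 3.11.15, NumPy 2.4.6, Numba 0.67.0). The steps were tested on simulated data.

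Both muscles came from the same animals, so the replicate numbers pair the arrays. The deviations of the arrays of a pig had a median correlation of 0.05 over probes, from -0.33 to 0.50, above 0.1 in 37 of 90 pigs. No value for arrays of different pigs is given beside these, so the pairing rests on the labels. The permutations treat the pigs as exchangeable, although pigs of a half-sib family are related and arrays share slides. The p-values across pigs may therefore be too small, and they concern these animals only. The number of arrays limits the precision. All member genes of the SLC25, SLC2, SLC16 and amino acid families are named, except for an item not reported here, with up to 3 per direction and role of the others, and the 8 highest and 3 lowest correlations between muscles. The members and all lists were chosen with earlier results of these data known.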

Additional observations from a re-analysis of the deposited data

How the results depend on the processing

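The muscle difference of the 62 carrier probes was recomputed under 13 alternatives. The count higher in LM, 27, was 25 to 30 under them, and with the pig as a replicate block it was 27, with 9159 of all probes called against 9169 and no carrier probe changing direction. Of 806 single values 785 stayed within 1 SD of the pig differences, 7 moved further and 14, on 9 probes, reversed. With the C-content index in the fit the reversed values were 0.44 for SLC4A1AP, -0.0067 for SLC30A6, -0.023 for SLC25A17, 0.49 for SLC25A6, 0.11 for SLC16A3, 0.22 for SLC16A11 and 0.26 for SLC5A10. With that index and the replicate block together they were 0.24 for SLC4A1AP, -0.12 for SLC2A12, 0.52 for SLC25A6, 0.0067 for SLC16A3 and 0.17 for SLC5A10. After normexp they were -0.039 for SLC2A12 and -0.20 for SLC47A2. The deposited table, with 6903 probes, called 6027 probes, since fewer were tested.

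Of the correlations between muscles, 150 of all probes and 1 carrier probe were called. The counts were 0 and 0 with slide means removed, 329 and 2 after normexp, 82 and 0 among pigs with a plain number, and 3 and 0 among those with an M code, where fewer pigs were tested. Of the 42 relations 23 were called, and 23 to 26 under the alternatives. After normexp SLC8A1 and ATP2A2 in LM turned to -0.25, SLC2A4 and GYS1 in SM to -0.038, and SLC16A3 and ALDOA in SM to -0.31, and the cause was not tested. Dim spots limit SLC46A1, SLCO3A1, SLC47A2, SLC22A16, SLC44A1, SLC37A1, SLC25A29, SLC25A17, SLC4A7 and SLC8A1, each on 1 probe, since a missing dim spot raises the mean of the muscle that lacks it.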
